A study of Mus musculus with 12 samples.

Results

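The genes described here form the program that the transcription factor ATF4 runs when cells are short of amino acids or otherwise stressed, together with the enzymes and carriers that supply amino acids. They were a fixed list of 38 genes, found by their symbols among the 45777 genes of the deposited table, and all 38 were present. Of these, 37 passed a filter on low values and were tested, and only Cbs did not pass. RNA was sequenced from splenic CD4+ T cells of wild type C57BL/6 mice. The labels give their age as 7 weeks, whereas the study's methods give an older range for its mice. All cultures received anti-CD3 at 0.5 µg/ml, an antibody that triggers the T cell receptor, and lasted 3 days. The study's methods also name soluble anti-CD28 at 0.5 µg/ml for T cell activation, whereas its legend for the RNA sequencing names anti-CD3 only. The 4 groups of 3 samples were anti-CD3 without a drug (Control), anti-CD3 with metformin, anti-CD3 with FK506 (tacrolimus), and anti-CD3 with both drugs (Metformin+FK506, the combination). Metformin is a diabetes drug that slows respiration in mitochondria, and FK506 blocks calcineurin, the phosphatase that carries the calcium signal of the T cell receptor. The doses of the drugs in these cultures are not given in the labels. No label says whether the samples of a group came from separate mice, so each p-value measures the spread between these samples, which may be technical.

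ATF4 is made when kinases phosphorylate the initiation factor eIF2, which slows most protein synthesis but favours translation of the Atf4 mRNA. In dividing T cells the growth kinase mTORC1 also raises ATF4, which then turns on enzymes that make serine, asparagine and one-carbon units and the carriers that bring amino acids in. The same factor drives brakes and death signals, among them DDIT3 (CHOP), TRIB3 and CHAC1, when stress lasts. The protein level of ATF4 was not measured here, so every value below is a level or a difference of RNA.

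Levels are given as FPKM, fragments counted per unit of transcript length and of library size, which allow a comparison between genes. Differences are log2 differences of counts from 1 edgeR fit over all 12 samples and 15197 genes, given with their standard error, and a gene was called when its Benjamini-Hochberg adjusted p was under 0.05. The fit scales libraries by trimmed means (TMM). On the FPKM scale the median gene sat 0.20 log2 units higher in FK506 relative to Control than in that fit, so small differences between those groups depend on the scale. Between 43402632 and 64290105 reads were counted per sample.

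Markers of other cell types differed in level between the groups. Cd4 was between 139 and 254 FPKM in all samples, and all 12 T cell markers were detected in every group, with summed levels of 2616 to 2671 FPKM in Control, 2338 to 2462 under metformin, 2055 to 2164 under FK506 and 2150 to 2240 under the combination. The sum of 10 B cell markers was 51.3 to 53.3 FPKM in Control and 67.6 to 75.5 with metformin, but 838 to 887 with FK506 and 410.3 to 441 with the combination. The sum of 10 myeloid markers was 4.66 to 4.70 FPKM in Control and 9.10 to 10.4 with metformin, with 5 and 4 of the 10 markers at 3 counts or fewer in every sample. It was 1238 to 1274 FPKM with FK506 and 792 to 926 with the combination, with no marker that low. Lyz2 made up most of that sum, at means of 981 ± 10.8 and 539 ± 64.5 FPKM (SD, n = 3), and was the only myeloid marker called lower in the combination against FK506, where 3 of the 10 were called higher and 6 did not pass. The sum of 8 markers of CD8 T and NK cells was 12.8 to 14.5 FPKM in Control and 35.7 to 42.3 across the other groups. In such bulk samples, fewer cells of a type and less RNA per cell cannot be told apart. The part of the other cell types in the differences below was not tested. Scaling to the T cell markers instead of all genes moved the median gene up by 0.56 log2 units in FK506 against Control and by 0.11 in metformin against Control, and down by 0.10 in the combination against FK506. That scaling split the calls over all genes into 65.6% higher with metformin, 75.3% higher with FK506 and 22.8% higher in the combination against FK506, where the TMM fit split them into 51.1%, 51.1% and 50.9%.

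A sequence to which ATF4 binds in a dimer with C/EBP factors, TGATGNAA on either strand, was searched in the RefSeq promoter windows of GRCm38.p6, the patch release of mm10. A window runs from 250 bases before an annotated start to 50 bases after it. Of the 38 members, 34 have a window in that table, and Eif4ebp1, Slc1a5, Cth and Slc7a5 do not. A match lay in 9 of the 34 (26.5%), beside 3.97% of all 32851 windows and 4.51% of all 27025 genes. For the stricter TGATGCAA the counts were 7 of 34 (20.6%), 0.895% and 1.03%. All 10 matches, of which Slc7a11 holds a pair, are printed on the strand of its gene, 5′ to 3′, with neighbouring bases, because these 9 genes are followed through the results below. Capitals mark the match of that line, and TTNCATCA is the same element on the other strand.
Chac1: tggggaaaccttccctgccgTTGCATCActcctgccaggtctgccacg
Asns: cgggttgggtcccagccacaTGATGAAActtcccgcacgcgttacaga
Trib3: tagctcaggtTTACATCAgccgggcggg
Nupr1: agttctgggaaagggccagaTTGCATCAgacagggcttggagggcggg
Slc1a4: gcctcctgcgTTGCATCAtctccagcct
Atf3: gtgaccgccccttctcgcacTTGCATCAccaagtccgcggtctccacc
Vldlr: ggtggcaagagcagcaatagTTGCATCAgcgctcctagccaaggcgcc
Pycr1: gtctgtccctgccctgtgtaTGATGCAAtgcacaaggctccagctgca
Slc7a11, first match: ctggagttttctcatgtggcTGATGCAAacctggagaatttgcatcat
Slc7a11, second match: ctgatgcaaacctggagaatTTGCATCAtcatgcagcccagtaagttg
These stretches lie at chr2:119351029-119351076 (plus strand) for Chac1, chr6:7693205-7693252 (minus) for Asns, chr2:152344029-152344056 (minus) for Trib3 and chr7:126625553-126625600 (minus) for Nupr1. They lie at chr11:20332700-20332727 (minus) for Slc1a4, chr1:191183416-191183463 (minus) for Atf3, chr19:27216800-27216847 (plus) for Vldlr, chr11:120643824-120643871 (minus) for Pycr1 and chr3:50443652-50443699 and chr3:50443633-50443680 (minus) for Slc7a11, whose stretches overlap. The match began 23 bases before the start in Asns, 110 in Atf3 and in Nupr1, 103 in Pycr1, 193 in Chac1 and 200 in Vldlr. In Slc1a4 it began 4 bases before the start, and in Trib3 14 bases after it. In Slc7a11 the first match began 66 bases before the start and the second 47, on the opposite strand. For Vldlr and Slc7a11 the annotated start used is not the outermost start of the gene. A match is a description of these letters and not evidence of binding.

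The first comparison asked what metformin did to the program in cells activated without FK506. Metformin raised 24 of the 37 tested members and lowered 7, while 6 did not pass the test. Over all genes tested, 28.6% were called higher and 27.4% lower. The median difference was 0.36 over the members and 0.011 over all genes. By role, 8 rose and 1 fell of 9 transcription factors and feedback genes, and 2 rose and 3 fell of 7 growth brakes and stress effectors, where the rises are near the share of all genes. Of 8 serine and one-carbon enzymes 4 rose and 3 fell. Of the 5 tested enzymes of other amino acids 4 rose, and of 8 genes of amino acid transport and tRNA export 6 rose, with no fall in either.

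With FK506 most members fell. Against Control, 34 of 37 members fell and 3 rose, where 39.6% of all genes were called lower and 41.3% higher, and the median difference was -2.33 beside 0.024 over all genes. The falls passed the test in all 8 serine and one-carbon enzymes and all 5 tested enzymes of other amino acids. The members that rose were Gdf15, Slc7a11 and Ppp1r15a. Gdf15 and Slc7a11 passed the filter of 0.5 FPKM in at least 3 samples only through cultures with FK506, and Vldlr and Cth only through cultures without it, so these 4 had to differ. With scaling to T cell markers the counts were 32 lower and 4 higher, where 9720 of the 12915 genes called were higher (75.3%).

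With metformin added to FK506, more members rose than fell. Against FK506 alone, the combination was higher in 23 of 37 members and lower in 2, where 15.6% of all genes were called higher and 15.0% lower, and the median difference was 0.29 beside 0.0019 over all genes. With scaling to T cell markers 19 were higher and 7 lower, where 1266 of the 5550 genes called were higher (22.8%). The calls of Aldh18a1, Cebpg, Ppp1r15a and Sesn2 were lost under that scaling, and Mthfd1, Mthfd1l, Shmt1, Slc1a5 and Slc7a11 became lower.

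The combination stayed far from Control and from metformin alone. Against Control, 32 members were lower and 4 higher, where 39.6% and 42.1% of all genes were, with a median of -2.02. Against metformin, 33 were lower and 4 higher, where 37.9% and 40.3% of all genes were, with a median of -2.01. The higher members against Control were Gdf15, Slc7a11, Ppp1r15a and Slc38a2, and those against metformin were Gdf15, Slc7a11, Ppp1r15a and Atf3. These comparisons share control samples with the others, so their values for one gene are not independent of each other. The difference between the change with metformin in the presence of FK506 and the change in its absence, the interaction, was called positive in 15 members and negative in 11, where 22.5% and 24.0% of all genes were. Scaling to T cell markers moved the median interaction of all genes down by 0.21. With it, 11 members were positive and 14 negative, where 12.6% and 39.9% of all genes were, so the negative count is near the share of all genes. Mthfd2, Slc7a5, Slc7a1 and Slc3a2 lost their positive calls there, and Atf4, Psat1 and Ppp1r15a gained negative ones.

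**Figure D1:**
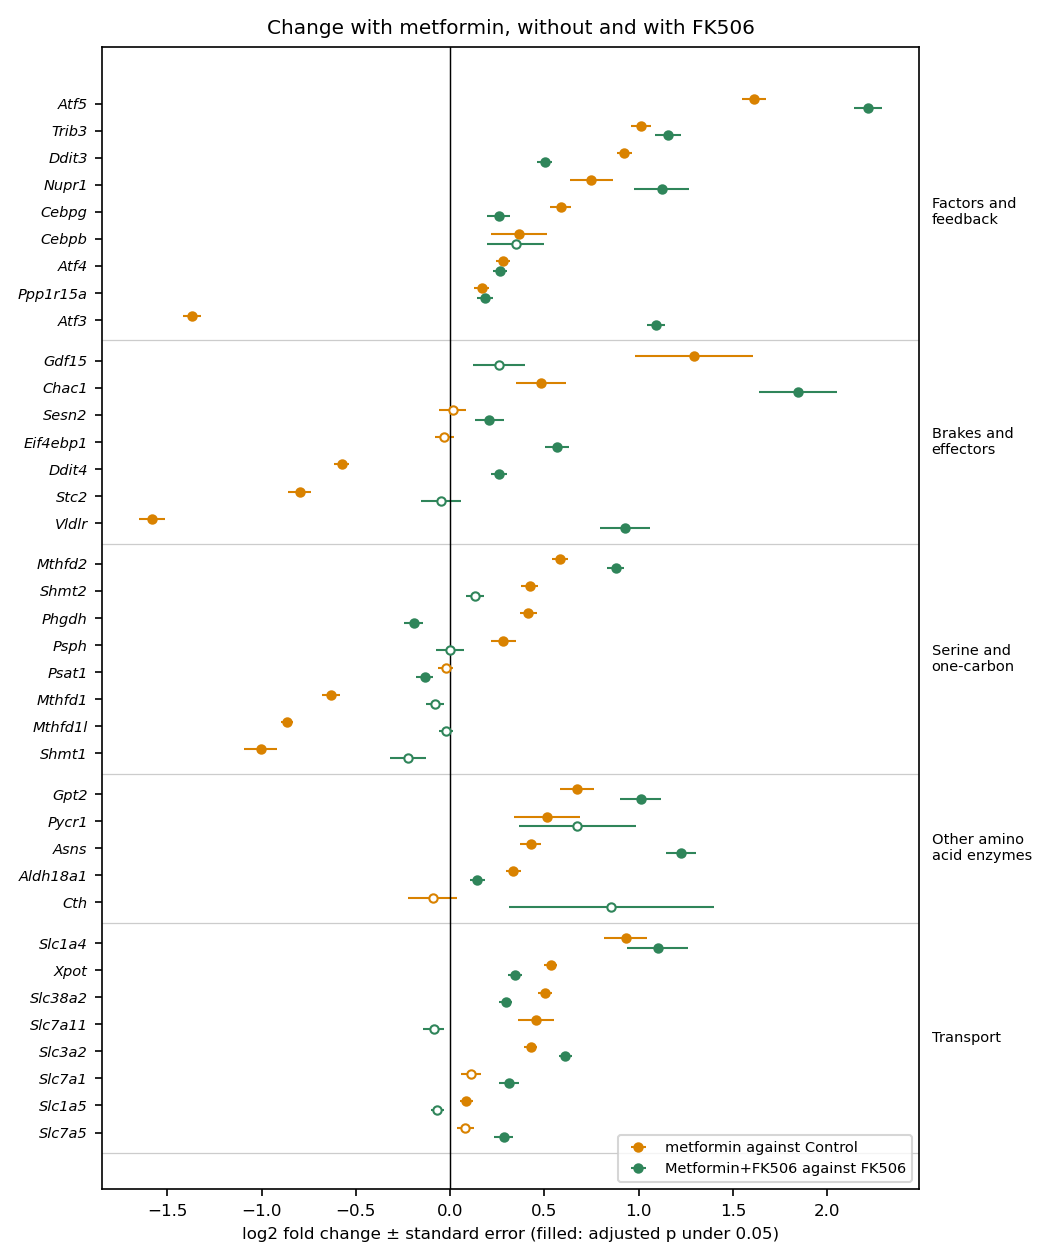
Log2 fold change of each of the 37 tested members with metformin, in the absence of FK506 (orange, metformin against Control) and in its presence (green, Metformin+FK506 against FK506), grouped by role and ordered within each role by the first. Points are edgeR estimates with their standard errors over 3 samples a group, and filled points have an adjusted p under 0.05; Atf3, Ddit4 and Vldlr lie left of 0 in orange and right of 0 in green.

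Of the members, 16 rose with metformin both in the absence and in the presence of FK506, as did 6.37% of all genes tested. They were Atf4, Atf5, Ddit3, Cebpg, Nupr1, Trib3, Ppp1r15a, Chac1, Mthfd2, Asns, Aldh18a1, Gpt2, Slc3a2, Slc1a4, Slc38a2 and Xpot. Atf3, Ddit4 and Vldlr fell in its absence and rose in its presence, as did 4.36% of all genes. Phgdh was the reverse case, with a rise in the absence of FK506 and a fall in its presence, a pattern of 4.14% of all genes. Sesn2, Eif4ebp1, Slc7a5 and Slc7a1 passed the test only in the presence of FK506, each as a rise, and Psat1 as a fall. With scaling to T cell markers, Slc7a5 and Slc7a1 rose with metformin alone as well, and Sesn2 passed on neither side. There 15 members rose on both sides, as did 3.67% of all genes. Cebpb, Gdf15, Psph, Shmt2, Pycr1, Slc7a11 and Slc1a5 rose, and Stc2, Shmt1, Mthfd1 and Mthfd1l fell, in its absence and did not pass the test in its presence. Cth passed in neither. Over all genes, 28.6% were called higher and 27.4% lower with metformin, and 10537 of 15197 did not pass in the combination against FK506. A pass in the absence of FK506 only is therefore common among all genes, and these counts are no result about the members. A pass on one side alone does not show that the changes differ, and the interaction is given below for each such gene.

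Among the regulators, Atf4 itself (chr15:80255184-80257545, GRCm38.p6) was the highest member in every group on the FPKM scale, and its RNA rose with metformin on both sides. It was at 265, 254 and 253 FPKM in the 3 Control samples, 312, 333 and 314 under metformin, 116, 112 and 113 under FK506 and 141, 134 and 129.8 under the combination. No pair of groups overlapped. The log2 difference was 0.28 ± 0.038 with metformin (edgeR adjusted p = 9.33e-06), -1.39 ± 0.039 with FK506 (edgeR adjusted p = 5.78e-15) and 0.27 ± 0.038 in the combination against FK506 (edgeR adjusted p = 6.53e-05). The interaction was -0.016 ± 0.054 (edgeR adjusted p = 0.836), with a 95% interval of -0.14 to 0.11. With scaling to T cell markers it was -0.23 and passed the test (edgeR adjusted p = 0.00259). In FK506, Slc3a2 and Slc1a5 followed Atf4 with overlapping levels, at 81.2 to 91.3 and 79.4 to 83.4 FPKM, whereas in Control Ddit4 and Phgdh followed it, at 179 to 188 and 172 to 179 FPKM.

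Atf5, a relative of Atf4 that is translated under the same conditions, moved most of all members with metformin. It was at 38.4, 32.3 and 36.7 FPKM in Control, 118, 109 and 109 under metformin, 6.82, 6.54 and 7.03 under FK506 and 31.2, 32.8 and 28.6 under the combination. Metformin raised it 3.05-fold (log2 1.61 ± 0.064, edgeR adjusted p = 3.67e-12), and 4.65-fold on top of FK506 (log2 2.22 ± 0.073, edgeR adjusted p = 5.68e-12), and the combination differed from Control by log2 -0.40 ± 0.065. The last difference turned to 0.054 with scaling to T cell markers. The interaction was 0.61 ± 0.097 (edgeR adjusted p = 7.85e-05).

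Ddit3, which encodes the death-promoting factor CHOP, was at 69.5, 69.0 and 66.6 FPKM in Control, 136, 144 and 144 under metformin, 27.3, 27.0 and 27.3 under FK506 and 37.2, 39.1 and 41.8 under the combination. Metformin raised it 1.9-fold (log2 0.92 ± 0.039) in the absence of FK506 and by log2 0.50 ± 0.042 in its presence, and the interaction was -0.42 ± 0.057 (edgeR adjusted p = 1.54e-05). Trib3, a pseudokinase that feeds back on ATF4, was at 43.3, 39.8 and 40.6 FPKM in Control, 87.0, 87.3 and 80.7 under metformin, 3.37, 3.55 and 3.46 under FK506 and 6.81, 7.78 and 8.12 under the combination. All 4 groups were apart for both genes. The Trib3 differences were 1.01 ± 0.053 with metformin, -3.79 ± 0.066 with FK506 and 1.16 ± 0.07 in the combination against FK506. The Trib3 interaction, 0.14 ± 0.088, did not pass the test (edgeR adjusted p = 0.2) but did without Metformin+FK506 replicate 1 (log2 difference 0.22, edgeR adjusted p 0.0284). It turned to -0.069 with scaling to T cell markers and to -0.084 in limma on log2(FPKM + 1).

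Nupr1, a small stress-induced chromatin protein, was at 32.7, 33.0 and 31.5 FPKM in Control, 53.6, 58.4 and 55.1 under metformin, 3.69, 3.29 and 4.47 under FK506 and 9.92, 8.1 and 6.22 under the combination. It rose with metformin by 0.75 ± 0.11 without and 1.12 ± 0.15 with FK506, and every combination sample was above every FK506 sample. Its interaction of 0.37 ± 0.18 (edgeR adjusted p = 0.111) passed the test without FK506 replicate 3 or Metformin+FK506 replicate 3 (log2 difference 0.49 to 0.52, edgeR adjusted p 0.00819 to 0.0486), and ranged over 0.22 to 0.52 on leaving out each sample. Ppp1r15a, which encodes GADD34, the phosphatase subunit that reverses eIF2 phosphorylation, was at 28.8, 28.4 and 27.8 FPKM in Control, 31.6, 32.6 and 33.4 under metformin, 38.8, 37.2 and 37.8 under FK506 and 42.8, 39.7 and 44.9 under the combination. It was the only regulator to rise with FK506, by 0.20 ± 0.041 (edgeR adjusted p = 0.000241), beside rises of 0.17 ± 0.041 with metformin and 0.19 ± 0.041 in the combination against FK506. Its interaction was 0.019 ± 0.058 (edgeR adjusted p = 0.824), but -0.19 with scaling to T cell markers, where it passed the test (edgeR adjusted p = 0.0178). Both dimer partners of the C/EBP family fell with FK506. Cebpg rose by 0.26 ± 0.06 in the combination against FK506, and by 0.15 without Metformin+FK506 replicate 2. With FK506 Cebpg fell by 1.35, and Cebpb by 0.74, a call that was lost with scaling to T cell markers, from means of 8.99 ± 0.835 FPKM in Control to 6.27 ± 0.593 with FK506 (SD, n = 3). Cebpb rose with metformin by 0.36 ± 0.15 (edgeR adjusted p = 0.0462), and that call was lost without a filter on low values and without Control replicates 2 or 3, Metformin replicates 1, 2 or 3 or FK506 replicates 1, 2 or 3 (log2 difference 0.32 to 0.39, edgeR adjusted p 0.0538 to 0.137). In the combination against FK506 Cebpb differed by 0.35 ± 0.15 (edgeR adjusted p = 0.0963), which passed the test without Metformin+FK506 replicate 1 (log2 difference 0.49, edgeR adjusted p 0.018) but was 0.070 without Metformin+FK506 replicate 2 (edgeR adjusted p = 0.662). For Cebpg the interaction was -0.33 ± 0.082, and for Cebpb -0.017 ± 0.21 (edgeR adjusted p = 0.968).

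Atf3, an early stress-response factor, was the regulator whose direction turned. It was at 67.5, 65.8 and 66.4 FPKM in Control, 24.6, 28.0 and 26.2 under metformin, 16.5, 16.6 and 17.8 under FK506 and 36.2, 35.6 and 34.8 under the combination. The lowest Control sample was thus above the highest of every other group, and the combination above both single drugs. Metformin lowered Atf3 2.59-fold in the absence of FK506 (log2 -1.37 ± 0.047, edgeR adjusted p = 6.82e-13) and raised it 2.13-fold in its presence (log2 1.09 ± 0.049, edgeR adjusted p = 2.08e-10). The interaction was 2.46 ± 0.068 (edgeR adjusted p = 1.34e-13). The combination exceeded metformin alone by 0.27 ± 0.048.

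**Figure D2:**
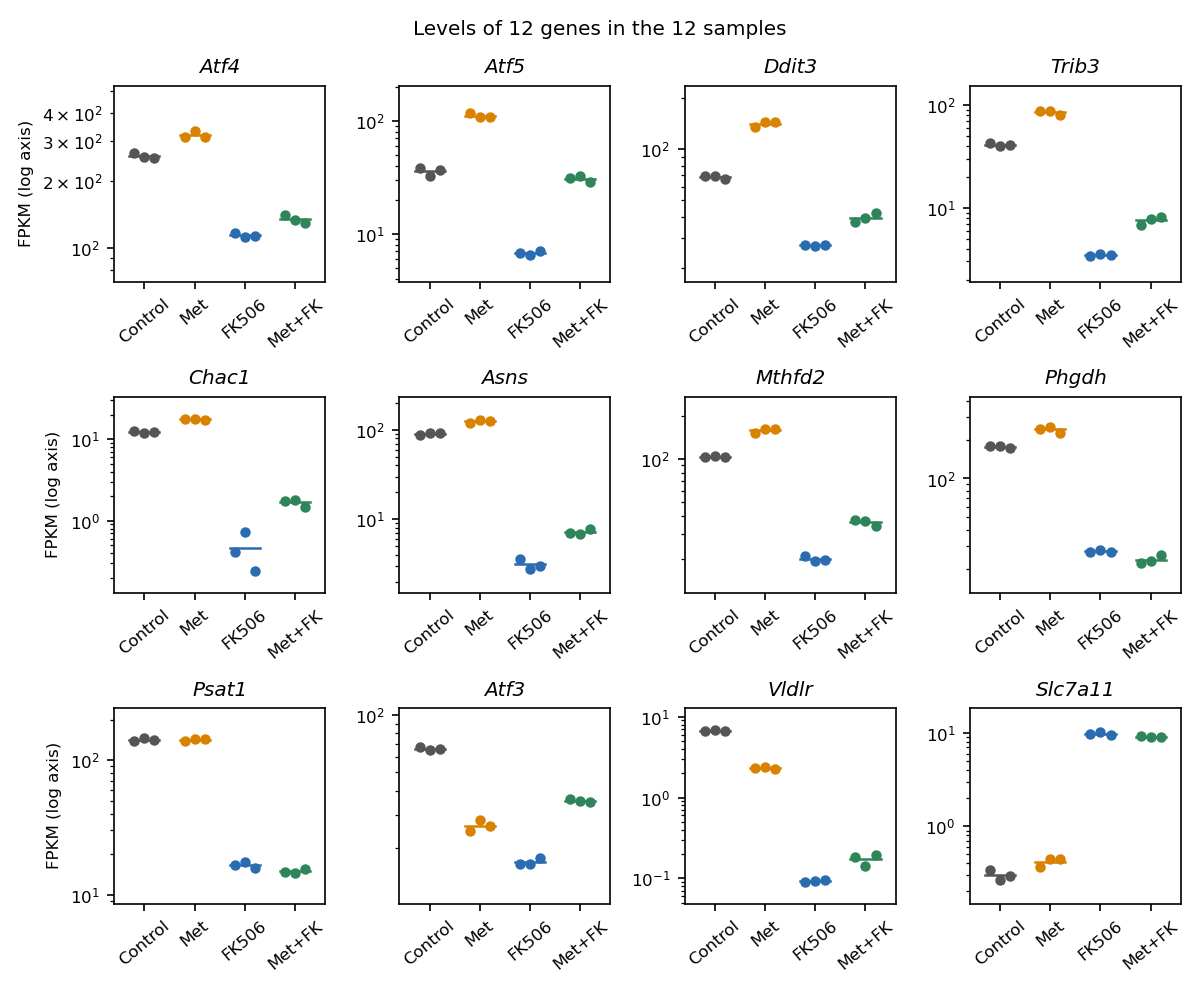
FPKM on log axes of 12 members in the 3 samples of each group (points, with the group mean as a line), where Met is metformin and Met+FK the combination. The FK506 points are the lowest for Atf4, Atf5, Ddit3, Trib3, Chac1, Asns, Mthfd2, Atf3 and Vldlr, while Phgdh and Psat1 are lowest with the combination and Slc7a11 is near 10 FPKM with FK506.

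The growth brakes and stress effectors moved in both directions. Chac1, which degrades glutathione, was at 12.7, 11.9 and 12.2 FPKM in Control, 17.6, 17.7 and 17.3 under metformin, 0.418, 0.718 and 0.244 under FK506 and 1.76, 1.82 and 1.46 under the combination. It was under 1 FPKM in every FK506 sample, and every combination sample was above every FK506 sample. The difference was 0.48 ± 0.13 with metformin, a call that was lost in limma on log2(FPKM + 0.1), -4.89 ± 0.18 with FK506 and 1.85 ± 0.21 in the combination against FK506, and the interaction was 1.36 ± 0.25 (edgeR adjusted p = 0.000277). Vldlr, the very low density lipoprotein receptor and a target of ATF4, was at 6.68, 6.9 and 6.66 FPKM in Control, 2.32, 2.38 and 2.23 under metformin, 0.0905, 0.0918 and 0.0957 under FK506 and 0.183, 0.141 and 0.194 under the combination. Metformin lowered it 2.99-fold (log2 -1.58 ± 0.069) and FK506 81.0-fold (log2 -6.34 ± 0.098), while the combination against FK506 was 0.93 ± 0.13 and the interaction 2.51 ± 0.15 (edgeR adjusted p = 8.74e-10). In limma on log2(FPKM + 1) the Vldlr rise in the combination did not pass the test, at levels under 0.2 FPKM.

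Stc2, a secreted glycoprotein induced by stress of the endoplasmic reticulum, was at 40.5, 40.5 and 39.5 FPKM in Control, 24.1, 23.7 and 23.0 under metformin, 1.53, 1.15 and 1.5 under FK506 and 1.41, 1.22 and 1.35 under the combination. It fell with either drug, by 0.80 with metformin and by 5.06 with FK506, and the FK506 and combination samples overlapped (difference -0.048 ± 0.11, edgeR adjusted p = 0.772). Its interaction was 0.75 ± 0.12. Ddit4 (REDD1), an inhibitor of mTORC1, had means of 183 ± 4.39 FPKM in Control, 125 ± 5.49 under metformin, 42.3 ± 0.763 under FK506 and 49.9 ± 2.9 under the combination (SD, n = 3). Like Atf3 and Vldlr it fell with metformin in the absence of FK506 (-0.58 ± 0.041) and rose in its presence (0.26 ± 0.042), with an interaction of 0.84 ± 0.059 (edgeR adjusted p = 7.67e-09). Eif4ebp1 and Sesn2 did not pass the test with metformin alone. Eif4ebp1, whose product holds back cap-dependent translation until mTORC1 inhibits it, differed by -0.032 ± 0.051 (edgeR adjusted p = 0.63) but rose by 0.57 ± 0.062 in the presence of FK506, and its interaction was 0.60 ± 0.08. Sesn2, a leucine sensor, differed by 0.013 ± 0.07 with metformin (edgeR adjusted p = 0.903) and rose by 0.21 ± 0.075 in the combination against FK506 (edgeR adjusted p = 0.0464), and that call was lost under 7 of 9 alternatives that kept all samples of the compared groups and without Control replicate 3, Metformin replicates 1, 2 or 3, FK506 replicates 1 or 2 or Metformin+FK506 replicates 1 or 3 (log2 difference 0.13 to 0.23, edgeR adjusted p 0.0512 to 0.257). The Sesn2 interaction was 0.20 ± 0.10 (edgeR adjusted p = 0.135), and 0.12 without FK506 replicate 1.

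Gdf15, a secreted stress hormone, was the effector that rose with FK506. It was at 0.301, 0.214 and 0.156 FPKM in Control, 0.811, 0.311 and 0.545 under metformin, 18.2, 17.9 and 18.4 under FK506 and 20.8, 22.2 and 22.2 under the combination. Levels in the cultures without FK506 were all under 1 FPKM, and those with FK506 were all above 17. FK506 raised it 65.8-fold (log2 6.04 ± 0.22), and the cell source of this rise was not tested. The summed myeloid markers, at 4.66 to 4.70 FPKM in Control and 1238 to 1274 with FK506, rose beside it. So did the summed B cell markers, at 51.3 to 53.3 FPKM in Control and 838 to 887 with FK506. With the combination these sums were 792 to 926 and 410.3 to 441 FPKM. In the combination against FK506, 3 of the 10 myeloid markers were called higher and 1, Lyz2, lower. Metformin raised Gdf15 by 1.29 ± 0.31 (edgeR adjusted p = 0.00217). In the combination against FK506 the difference was 0.26 ± 0.14 (edgeR adjusted p = 0.175). The interaction of -1.03 ± 0.34 (edgeR adjusted p = 0.0219) was lost in limma on both FPKM scales and without Control replicates 2 or 3 or Metformin replicate 1 (log2 difference -1.01 to -0.67, edgeR adjusted p 0.0551 to 0.102).

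**Figure D3:**
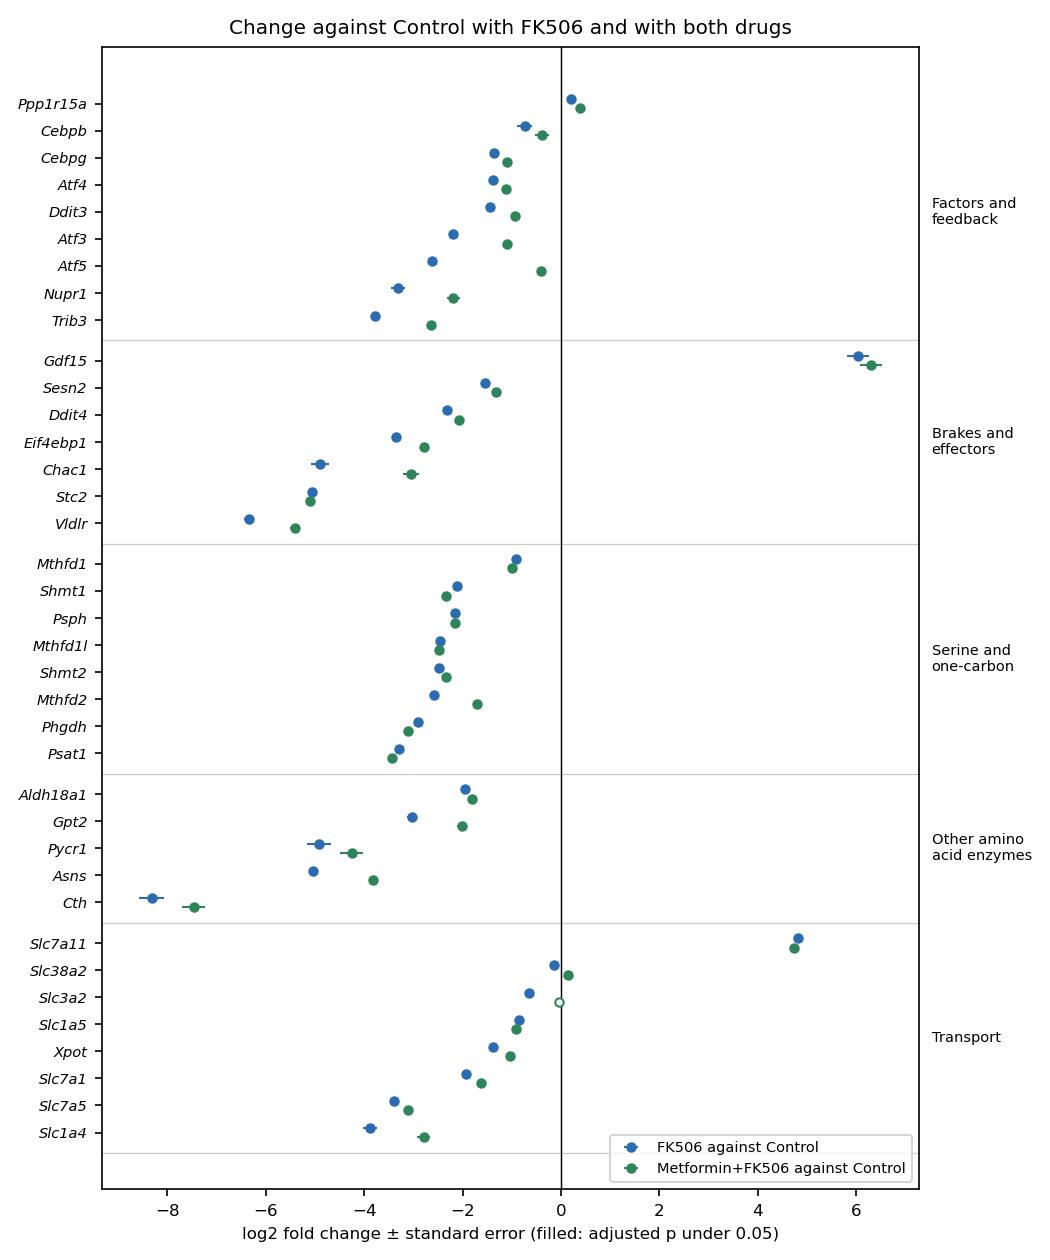
Log2 fold change of each of the 37 tested members against Control with FK506 (blue) and with the combination (green), grouped by role, with standard errors over 3 samples a group. All members but Gdf15, Slc7a11 and Ppp1r15a lie left of 0 in blue, and the open green point is Slc3a2.

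The serine and one-carbon enzymes fell together with FK506 but did not move as a block with metformin. Phgdh, the entry enzyme of serine synthesis, was at 179, 177 and 172 FPKM in Control, 243, 252 and 225 under metformin, 27.1, 27.8 and 26.9 under FK506 and 22.1, 22.8 and 25.4 under the combination. Metformin raised Phgdh by 0.42 ± 0.047 (edgeR adjusted p = 1.27e-06) in the absence of FK506 and lowered it in its presence (-0.19 ± 0.051, edgeR adjusted p = 0.00885), and the interaction was -0.61 ± 0.069 (edgeR adjusted p = 2.29e-06). FK506 alone lowered it 7.51-fold (log2 -2.91 ± 0.051). Psat1, the transaminase of the next step, was at 138, 145 and 141 FPKM in Control, 139, 144 and 143 under metformin, 16.6, 17.5 and 15.7 under FK506 and 14.6, 14.4 and 15.6 under the combination. Control and metformin overlapped (-0.023 ± 0.039, edgeR adjusted p = 0.651), and FK506 lowered it 9.85-fold (log2 -3.30 ± 0.044). The fall in the combination against FK506 was small (-0.14 ± 0.044, edgeR adjusted p = 0.0295), and that call was lost in a fit of only these groups and without FK506 replicate 2 or Metformin+FK506 replicates 1 or 2 (log2 difference -0.13 to -0.10, edgeR adjusted p 0.0543 to 0.108). Its interaction was -0.11 ± 0.059 (edgeR adjusted p = 0.134), but -0.32 with scaling to T cell markers, where it passed the test (edgeR adjusted p = 0.000357), and -0.070 without FK506 replicate 2. Psph, the phosphatase that completes serine, rose with metformin by 0.28 ± 0.066 and fell by 2.15 with FK506. In the combination against FK506 Psph differed by -0.00073 ± 0.075, with an interval of -0.17 to 0.17. Its interaction of -0.28 ± 0.1 (edgeR adjusted p = 0.0293) was lost without Control replicates 1 or 2, Metformin replicates 1 or 2, FK506 replicates 1 or 3 or Metformin+FK506 replicate 1 (log2 difference -0.28 to -0.21, edgeR adjusted p 0.0512 to 0.0908).

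Enzymes of the folate cycle moved both ways with metformin. The mitochondrial enzymes Mthfd2 and Shmt2 rose with metformin, Mthfd2 from 103 ± 0.556 to 158 ± 5.18 FPKM (SD, n = 3, log2 0.58 ± 0.043) and Shmt2 from 133 ± 1.63 to 182 ± 2.28 (log2 0.42 ± 0.045). The cytosolic enzymes Shmt1 and Mthfd1, and mitochondrial Mthfd1l, which makes formate, fell. Shmt1 was at 19.998, 18.98 and 19.84 FPKM in Control, 9.15, 10.8 and 10.0 under metformin, 4.5, 5.73 and 5.62 under FK506 and 4.12, 4.41 and 4.79 under the combination. Metformin lowered it 2.01-fold, and its combination samples overlapped those with FK506 alone. Mthfd1l was at 56.9, 55.9 and 56.5 FPKM in Control, 32.1, 31.3 and 31.7 under metformin, 11.8, 11.9 and 12.1 under FK506 and 11.2, 11.6 and 11.8 under the combination. Its fall with metformin was 1.82-fold, and the FK506 and combination samples overlapped. The fall of Mthfd1 with metformin was -0.63 ± 0.048 on the log2 scale and that with FK506 -0.91 ± 0.048, the least among these enzymes. Mthfd2 was the only one of the 8 to rise in the combination against FK506 (0.88 ± 0.046, edgeR adjusted p = 1.13e-09). Shmt2 differed there by 0.13 ± 0.048 (edgeR adjusted p = 0.0506) and passed the test on genes with a mean FPKM of at least 1 and without FK506 replicate 2 or Metformin+FK506 replicates 2 or 3 (log2 difference 0.15 to 0.17, edgeR adjusted p 0.0237 to 0.0475), and was 0.062 without Metformin+FK506 replicate 1 (edgeR adjusted p = 0.321). Shmt1 differed by -0.23 ± 0.096 (edgeR adjusted p = 0.0897) and passed it without FK506 replicate 1 (log2 difference -0.34, edgeR adjusted p 0.0099). The interaction was called in each of these 5 genes, at 0.30 ± 0.062 for Mthfd2, -0.29 ± 0.066 for Shmt2, 0.78 ± 0.13 for Shmt1, 0.56 ± 0.068 for Mthfd1 and 0.84 ± 0.049 for Mthfd1l, and that of Mthfd2 was lost with scaling to T cell markers.

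Of the other enzymes, Asns, the asparagine synthetase, was at 86.9, 92.4 and 90.7 FPKM in Control, 119.6, 127 and 124 under metformin, 3.62, 2.76 and 3.02 under FK506 and 7.02, 6.91 and 7.88 under the combination. All 4 groups were apart. FK506 lowered Asns 33.2-fold (log2 -5.05 ± 0.073, edgeR adjusted p = 2.14e-18). Metformin raised it by 0.43 ± 0.055 without FK506 and by 1.23 ± 0.079 with it, and the interaction was 0.80 ± 0.097 (edgeR adjusted p = 4.8e-06). Even so, the combination stayed 14.2-fold below Control.

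Cth, which makes cysteine from cystathionine, was the member that fell most with FK506. It was at 23.8, 24.7 and 23.3 FPKM in Control, 22.2, 23.8 and 22.8 under metformin, 0.0886, 0.0872 and 0.0639 under FK506 and 0.265, 0.162 and 0 under the combination. The FK506 samples held 11, 11 and 6 counts and the combination samples 27, 21 and 0, so one combination sample had no counts of this gene. FK506 lowered it 321-fold (log2 -8.32 ± 0.24). The combination differed from FK506 by 0.85 ± 0.54 (edgeR adjusted p = 0.257) and passed the test without Metformin+FK506 replicate 3 (log2 difference 1.31, edgeR adjusted p 0.00253), and the interaction of 0.95 ± 0.56 (edgeR adjusted p = 0.182) did so without Metformin+FK506 replicate 3 (log2 difference 1.41, edgeR adjusted p 0.000853). Without Metformin+FK506 replicate 1 they were 0.22 and 0.32 (edgeR adjusted p = 0.824 and 0.704). With metformin alone Cth differed by -0.093 ± 0.13 (edgeR adjusted p = 0.571). Cbs, the enzyme of the preceding step, was low throughout, at 0.23, 0.371 and 0.226 FPKM in Control and 0.327, 0.262 and 0.192 with metformin. It had 2, 0 and 0 counts with FK506 and none with the combination, which against a floor of 3 counts per library is at least 14.2-fold and 13.3-fold lower than Control, with counting error only and no test.

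Gpt2, a mitochondrial alanine aminotransferase, rose with metformin by 0.67 ± 0.088 without and 1.01 ± 0.11 with FK506. Its interaction of 0.34 ± 0.14 (edgeR adjusted p = 0.0599) passed the test in DESeq2 and without Metformin+FK506 replicate 3 (log2 difference 0.47, edgeR adjusted p 0.000853). The Gpt2 interaction was 0.20 without Metformin+FK506 replicate 1 and turned to -0.071 in limma on log2(FPKM + 1). Aldh18a1 and Pycr1 make proline from glutamate. Aldh18a1 rose by 0.34 ± 0.039 with metformin and by 0.14 ± 0.042 in the combination against FK506, where the call was lost under 5 of 9 alternatives that kept all samples of the compared groups and without FK506 replicates 1 or 3 or Metformin+FK506 replicate 3 (log2 difference 0.10 to 0.13, edgeR adjusted p 0.0605 to 0.0958), and its interaction was -0.19 ± 0.057. Pycr1 rose by 0.51 ± 0.18 with metformin (edgeR adjusted p = 0.0211), and that call was lost in DESeq2 (adjusted p = 0.226), in limma on log2(FPKM + 0.1) (adjusted p = 0.241) and without Control replicate 3 or Metformin replicate 1 (log2 difference 0.45 to 0.46, edgeR adjusted p 0.0799 to 0.0859). Its levels were 0.0918, 0.395 and 0.608 FPKM with FK506 and 0.578, 0.652 and 0.478 with the combination, a difference of 0.67 ± 0.31 (edgeR adjusted p = 0.115) that passed the test without FK506 replicate 3 (log2 difference 1.04, edgeR adjusted p 0.0262) but was 0.22 without FK506 replicate 1 (edgeR adjusted p = 0.458), with an interaction of 0.16 ± 0.36 (edgeR adjusted p = 0.747).

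Among the carriers, Slc1a4 (ASCT1), which carries serine, alanine and threonine, was at 11.9, 9.16 and 10.1 FPKM in Control, 20.5, 19.9 and 20.2 under metformin, 0.619, 1.04 and 0.781 under FK506 and 1.96, 1.75 and 1.39 under the combination. All 4 groups were apart. Metformin raised it by 0.93 ± 0.11 without and 1.10 ± 0.16 with FK506, and the interaction was 0.17 ± 0.20 (edgeR adjusted p = 0.517). The interaction turned to -0.33 in limma on log2(FPKM + 1), -0.044 with scaling to T cell markers and -0.0099 without FK506 replicate 1. Slc7a11 (xCT), the cystine importer, was at 0.338, 0.267 and 0.296 FPKM in Control, 0.367, 0.441 and 0.448 under metformin, 9.65, 10.3 and 9.59 under FK506 and 9.26, 9.00 and 9.07 under the combination. In the fit it was the only carrier among the members that rose with FK506, 28.1-fold (log2 4.81 ± 0.076). The summed myeloid and B cell markers given above rose as well, and the cell source of this rise was not tested. Slc7a11 rose by 0.45 ± 0.095 with metformin, a call that was lost in limma on log2(FPKM + 1). It differed by -0.087 ± 0.056 in the combination against FK506 (edgeR adjusted p = 0.265), and had an interaction of -0.54 ± 0.11 (edgeR adjusted p = 0.000768).

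**Figure D4:**
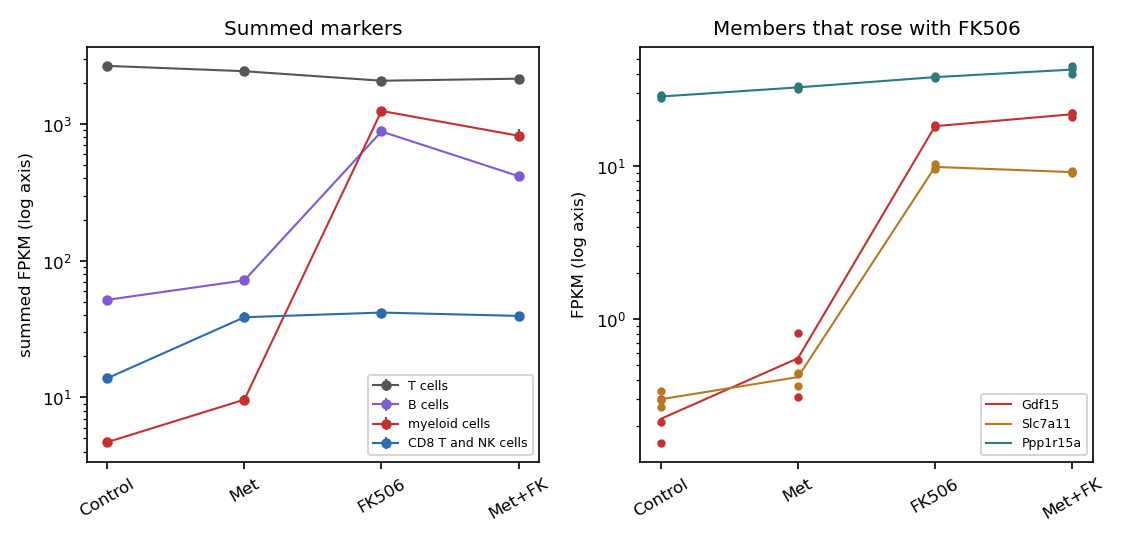
Left, summed FPKM of the marker genes of 4 cell types by group on a log axis (points are medians of 3 samples, bars the lowest and highest). Right, FPKM on a log axis of the members that rose with FK506 in each sample, with lines through the group means; Gdf15 and Slc7a11 are below 1 FPKM without FK506 and above 8 FPKM with it.

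The chains of the large neutral amino acid carrier LAT1 both fell with FK506. Slc7a5, its transporting chain, fell by 3.39 with FK506, from 98.4 ± 2.00 to 10.9 ± 0.353 FPKM (SD, n = 3). Slc3a2, the heavy chain, which also serves xCT, fell by 0.66, from 116 ± 2.01 to 84.8 ± 5.66 FPKM. With the combination Slc3a2 was at 126 ± 5.74 FPKM and differed from Control by -0.048 ± 0.035 (edgeR adjusted p = 0.22, interval -0.13 to 0.034) in the fit. Without a filter on low values it was a called fall of -0.10 (edgeR adjusted p = 0.0317). It turned to a called rise of 0.12 in limma on both FPKM scales (limma adjusted p = 0.0305 and 0.0311) and of 0.41 with scaling to T cell markers (edgeR adjusted p = 1.33e-08). Slc7a5 rose by 0.28 ± 0.05 in the combination against FK506 and differed by 0.081 ± 0.045 with metformin alone (edgeR adjusted p = 0.14), which with scaling to T cell markers was 0.19 and passed the test (edgeR adjusted p = 0.00279). Its interaction of 0.20 ± 0.067 (edgeR adjusted p = 0.0201) was lost in limma on both FPKM scales and without FK506 replicate 3 or Metformin+FK506 replicates 1 or 3 (log2 difference 0.16 to 0.18, edgeR adjusted p 0.0512 to 0.0681), and it turned to -0.0073 with scaling to T cell markers. For Slc3a2 the interaction was 0.18 ± 0.05 (edgeR adjusted p = 0.00664), which was lost in limma on both FPKM scales, and it turned to -0.030 with scaling to T cell markers.

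Slc7a1, an arginine and lysine carrier, rose by 0.31 ± 0.053 in the combination against FK506 and differed by 0.11 ± 0.051 with metformin (edgeR adjusted p = 0.0804). The latter passed the test with scaling to T cell markers (0.22, edgeR adjusted p = 0.00379), on genes with a mean FPKM of at least 1 (edgeR adjusted p = 0.0492), in a fit of only these groups (edgeR adjusted p = 0.013) and without FK506 replicate 2 (log2 difference 0.10, edgeR adjusted p 0.0398). Its interaction of 0.20 ± 0.074 (edgeR adjusted p = 0.0337) was lost in limma on both FPKM scales, without a filter on low values and without Control replicates 1 or 3, Metformin replicates 1 or 2, FK506 replicates 1 or 3 or Metformin+FK506 replicate 1 (log2 difference 0.16 to 0.20, edgeR adjusted p 0.0559 to 0.0966), and it turned to -0.010 with scaling to T cell markers. Slc1a5 (ASCT2), a glutamine carrier, fell by 0.85 with FK506, and its rise of 0.086 ± 0.034 with metformin (edgeR adjusted p = 0.041) was lost without a filter on low values and without Control replicates 2 or 3, Metformin replicates 1 or 3, FK506 replicates 1, 2 or 3 or Metformin+FK506 replicates 1, 2 or 3 (log2 difference 0.07 to 0.088, edgeR adjusted p 0.0564 to 0.147). In the combination against FK506 it differed by -0.069 ± 0.034 (edgeR adjusted p = 0.144), with an interaction of -0.16 ± 0.048. Slc38a2 (SNAT2), a carrier induced by amino acid shortage, rose by 0.50 ± 0.036 with metformin and 0.29 ± 0.036 in the combination against FK506, with an interaction of -0.21 ± 0.051. The direction of its change with FK506 hung on the scale, at -0.14 ± 0.036 in the fit, 0.073 on the log2(FPKM + 1) scale (limma adjusted p = 0.0945) and 0.42 (edgeR adjusted p = 2.04e-07) with scaling to T cell markers. Xpot, the exporter of tRNA from the nucleus, rose by 0.53 ± 0.036 with metformin and 0.34 ± 0.037 in the combination against FK506 and fell by 1.39 with FK506, with an interaction of -0.19 ± 0.052.

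Members with the ATF4 element in their window were set beside those without it. In the combination against FK506, 7 of 9 with a match rose, with a median of 1.10, and of the 24 tested members with a window and no match 14 rose and 2 fell, with a median of 0.259. Pycr1 and Slc7a11 were the members with a match that did not pass the test. Over all genes tested that have a window, 17.9% of the 307 with a match and 16.9% of the 10378 without were called higher, and 18.2% and 15.2% lower. With metformin alone, 7 of the 9 rose and Atf3 and Vldlr fell, with a median of 0.481. Of the 24 members without a match 16 rose and 5 fell, with a median of 0.350. There 42.0% of all tested genes with a match and 30.5% of those without were called higher, and 26.7% and 29.6% lower. Atf5 and Gdf15, which also moved much with metformin, held no match in these windows.

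**Figure D5:**
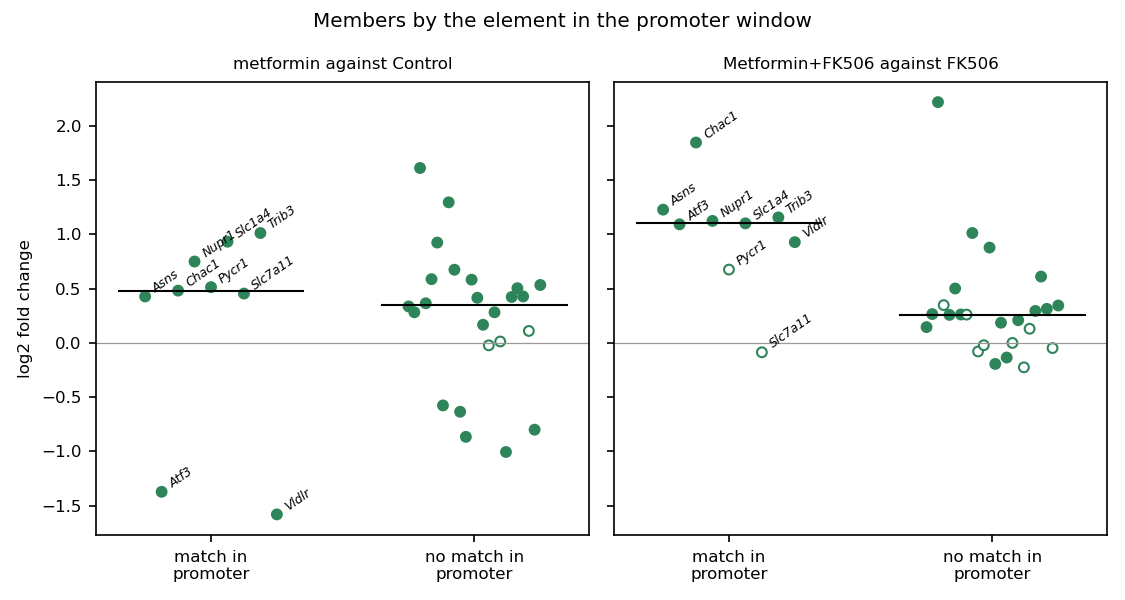
Log2 fold change with metformin (left) and in the combination against FK506 (right) of the members with and without the ATF4 element TGATGNAA in their promoter window (filled points have an adjusted p under 0.05, lines are medians). Of the 9 named genes with a match, 7 lie above 0.9 on the right, and on the left Atf3 and Vldlr lie below -1.

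Genes next to the program on the pathway were read from lists of related genes. Their counts stand beside the shares of all genes called higher and lower, which were 28.6% and 27.4% with metformin, 41.3% and 39.6% with FK506, and 15.6% and 15.0% in the combination against FK506. Calls under the alternatives were read for the members only. Scaling to T cell markers moved the median gene up by 0.56 log2 units in FK506 against Control, so small falls with FK506 in these lists may depend on the scale. A list of 11 genes around eIF2 held 4 eIF2 kinases, 5 subunits of eIF2B, the exchange factor that the phosphorylation blocks, the eIF2 subunit Eif2s1 and the phosphatase subunit Ppp1r15b. Of these, 2 rose and 7 fell with metformin, 2 and 8 with FK506, and 0 and 3 in the combination against FK506. Their median difference with FK506 was -0.32. Eif2ak2, the kinase PKR, which is also induced by interferon, fell most, from 26.3 ± 0.733 FPKM in Control to 5.8 ± 0.248 with metformin (SD, n = 3, log2 -2.12 ± 0.067), and by 1.57 with FK506 and 0.31 in the combination against FK506. Eif2ak3, the kinase PERK of the endoplasmic reticulum, rose by 0.35 ± 0.043 with metformin and 0.89 ± 0.042 with FK506.

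All 20 cytosolic aminoacyl-tRNA synthetases, which load amino acids onto tRNA, fell with FK506 in the fit. The median was -1.25 and the smallest fall -0.26. In the combination against FK506, 8 rose and 2 fell. With metformin 10 rose and 6 fell. Cars (cysteine) fell most with FK506 (-2.14 ± 0.052) and rose most in the combination against it (0.53 ± 0.052). Wars (tryptophan) rose most with metformin (0.62 ± 0.043) and Dars (aspartate) fell most (-0.68 ± 0.044), while Vars (valine) fell most in the combination against FK506 (-0.25 ± 0.037).

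Of 14 other tested amino acid transporters, 9 rose and 3 fell with metformin, 7 rose and 3 fell with FK506, and 4 rose and 2 fell in the combination against FK506. Slc6a9 (GLYT1), a glycine carrier, rose in both metformin comparisons, from 9.23 ± 0.284 FPKM in Control to 26.9 ± 0.609 with metformin (log2 1.51 ± 0.064) and from 0.62 ± 0.106 with FK506 to 1.51 ± 0.0995 with the combination (SD, n = 3, log2 1.31 ± 0.1). Slc7a3, a carrier of cationic amino acids, fell most with FK506, from 18.1 ± 0.283 to 0.367 ± 0.0736 FPKM (SD, n = 3). Slc7a8 was at 0, 6 and 0 counts in Control and 1385, 1582 and 1314 with FK506, and was highest there relative to Control among these carriers. Slc7a3 passed the filter only through cultures without FK506 and Slc7a8 only through those with it, so these had to differ. Slc7a2 fell most with metformin (-2.68 ± 0.17), at under 1 FPKM, and Slc43a1 in the combination against FK506 (-0.57 ± 0.15).

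The wider folate and methionine cycle held 5 risers and 9 that fell of 18 tested with metformin, 2 and 12 with FK506, and 2 and 3 in the combination against FK506. The 5 risers with metformin are near the share of all genes. Aldh1l2, a mitochondrial folate dehydrogenase, fell most with FK506, from 3.84 ± 0.19 to 0.0756 ± 0.0257 FPKM (SD, n = 3), having passed the filter only through cultures without FK506, so that it had to differ. It rose most in the combination against it (1.26 ± 0.26). Mthfd2l, a relative of Mthfd2, rose most with metformin (0.95 ± 0.23) and with FK506 (1.02 ± 0.23), at under 1.3 FPKM in all samples. The folate carrier Slc19a1 fell most with metformin (-0.69 ± 0.086), and the thymidylate synthase Tyms in the combination against FK506 (-0.51 ± 0.072).

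Among 11 other enzymes of glutamate and proline, 3 rose and 1 fell with metformin, 4 rose and 5 fell with FK506, and none rose and 3 fell in the combination against FK506. Of these, the counts of risers with metformin and both counts with FK506 are near the shares of all genes, and Prodh passed the filter only through cultures with FK506. Glul, which makes glutamine, rose most with metformin (0.41 ± 0.048) and with FK506 (1.53 ± 0.047), and Got1, the cytosolic aspartate aminotransferase, fell most in both (-0.41 ± 0.045 and -1.24 ± 0.046). Gpt, the cytosolic alanine aminotransferase, fell most in the combination against FK506 (-0.49 ± 0.13), where mitochondrial Gpt2 rose. Of 7 tested genes of mitochondrial stress and chaperones, 3 rose and 1 fell with metformin, 1 rose and 6 fell with FK506, and 3 rose in the combination against FK506. Lonp1, a mitochondrial protease, fell by 2.58 with FK506 and rose by 0.42 ± 0.038 in the combination against it. With metformin the chaperone genes Hspa9 (0.21 ± 0.033) and Hspd1 (-0.26 ± 0.039) moved apart. Oma1, the protease that starts the mitochondrial route to eIF2 phosphorylation, rose with FK506 in counts (0.53 ± 0.078), whereas its FPKM overlapped, at 5.68, 7.64 and 7.16 in Control and 7.00, 8.87 and 5.59 with FK506.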

How the data were processed

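Polyadenylated RNA of 12 cultures was sequenced, 3 in each of 4 groups assigned from the treatment label. The authors deposited 1 table of 45777 genes with counts per gene, whole numbers that were not normalized, and FPKM values per gene and sample. The submitters' processing notes name bcl2fastq 2.20.0, Trimmomatic, HISAT2 2.1.0, StringTie 2.1.3b and the build mm10. The table's 12 further value columns stayed unused. The handling of reads shared by paralogs, and of strand, is not given in the sources used here, so values of genes with near-identical copies are uncertain. Columns named for Tho were matched to the Control samples, whose descriptions read Th0.

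Counts were tested with edgeR 4.0.16 in R 4.3.3 (TMM scaling, glmQLFit and glmQLFTest, 1 fit over the 4 groups with 8 residual degrees of freedom) on the 15197 genes with at least 0.5 FPKM in at least 3 samples, and p-values were adjusted over all of them by the Benjamini-Hochberg method. Intervals are 95% intervals of the log2 difference. The study's methods name no test for these libraries. The 6 comparisons were each drug and the combination against Control, the combination against each drug, and the interaction. Alternatives were edgeR RLE scaling, scaling by the T cell markers, DESeq2 1.42.0, limma 3.58.1 on log2(FPKM + 1) and log2(FPKM + 0.1), no filter, a mean FPKM of at least 1, only the groups compared, a replicate block, and leaving out each sample. At this depth, 3 counts or fewer were taken as the floor, which covers counting error only. Replicates differed by more than sampling noise, with a chi-square between 3.63 and 13.0 per degree of freedom. Sequences are from the RefSeq tables of GRCm38.p6.

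The members and the gene lists were chosen with earlier results of these data known, so that no list is independent evidence. Genes given in every sample were Atf4 and, among members past the threshold, the 5 that rose and the 5 that fell most with metformin and in the combination against FK506 with groups that do not overlap, the 3 with FK506 and the 3 by the interaction. From each related list the gene that rose and the gene that fell most in these comparisons were named. No gene was ranked by likeness to Atf4 across samples, since the samples fall into clusters with and without FK506.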

Additional observations from a re-analysis of the deposited data

Results flagged for a closer look

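For 26 members the change with metformin differed between cultures with and without FK506, by a test of the difference itself (edgeR interaction, adjusted p under 0.05), where 46.5% of all genes were called. With scaling to T cell markers 25 members were called, where 52.4% of all genes were, and Mthfd2, Slc7a5, Slc7a1 and Slc3a2 were no longer among them while Atf4, Psat1 and Ppp1r15a were. Positive log2 interactions, where the change was higher in the presence of FK506, were 2.51 for Vldlr, 2.46 for Atf3, 1.36 for Chac1, 0.84 for Mthfd1l, 0.84 for Ddit4, 0.80 for Asns, 0.78 for Shmt1, 0.75 for Stc2, 0.61 for Atf5, 0.60 for Eif4ebp1, 0.56 for Mthfd1, 0.30 for Mthfd2, 0.20 for Slc7a5, 0.20 for Slc7a1 and 0.18 for Slc3a2. The interactions of Slc7a5, Slc7a1 and Slc3a2 turned to values between -0.030 and -0.0073 with scaling to T cell markers.

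Negative interactions were -1.03 for Gdf15, -0.61 for Phgdh, -0.54 for Slc7a11, -0.42 for Ddit3, -0.33 for Cebpg, -0.29 for Shmt2, -0.28 for Psph, -0.21 for Slc38a2, -0.19 for Aldh18a1, -0.19 for Xpot and -0.16 for Slc1a5. The B cell markers summed to 838 to 887 FPKM with FK506 and 410.3 to 441 with the combination, beside 51.3 to 53.3 in Control and 67.6 to 75.5 with metformin, and their part in these differences was not tested.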

How the results depend on the processing

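Counts of members called stayed within 1.5 times the value reported under every alternative run, except members lower in the combination against FK506. These were 2 in the fit, 7 with scaling by the T cell markers, 1 with only the groups compared, and 1 to 3 on leaving out each sample. Over the other counts, members higher were 21 to 26 with metformin, 3 to 4 with FK506 and 19 to 24 in the combination against FK506. By the interaction 11 to 17 were positive and 9 to 14 negative, with 11 and 14 under scaling by the T cell markers.

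Directions turned as follows, and the cause was not tested. With scaling by the T cell markers the interaction became -0.069 for Trib3, -0.19 for Ppp1r15a, -0.019 for Sesn2, -0.055 for Pycr1, -0.0073 for Slc7a5, -0.030 for Slc3a2, -0.010 for Slc7a1 and -0.044 for Slc1a4. With that scaling the change with metformin became 0.078 for Eif4ebp1, 0.087 for Psat1 and 0.017 for Cth, that with FK506 0.42 for Slc38a2, and the combination against Control 0.054 for Atf5 and 0.41 for Slc3a2. In limma on log2(FPKM + 1) the interaction became -0.084 for Trib3, -0.034 for Ppp1r15a, -0.26 for Pycr1, -0.071 for Gpt2 and -0.33 for Slc1a4, and the change 0.00022 for Eif4ebp1 and 0.0090 for Psat1 with metformin, 0.073 for Slc38a2 with FK506 and 0.12 for Slc3a2 in the combination against Control. With log2(FPKM + 0.1) the corresponding values were -0.036 for Ppp1r15a, 0.00022 for Eif4ebp1, 0.0090 for Psat1, 0.074 for Slc38a2 and 0.12 for Slc3a2. Psph in the combination against FK506 became 0.0019 with a mean FPKM of at least 1, and Sesn2 with metformin became -0.0023 without a filter. On leaving out each sample the interaction ranged from -0.040 to 0.015 for Atf4, -0.29 to 0.13 for Cebpb, -0.017 to 0.056 for Ppp1r15a, -0.28 to 0.53 for Pycr1 and -0.0099 to 0.40 for Slc1a4. Sesn2 with metformin ranged from -0.043 to 0.075, and in the combination against FK506 Psph ranged from -0.094 to 0.062 and Stc2 from -0.19 to 0.033. Calls of members were lost as follows. With scaling by the T cell markers, Slc38a2 and Mthfd1 in the combination against metformin lost theirs (edgeR adjusted p = 0.886 and 0.855), beside Cebpb with FK506, Cebpg, Ppp1r15a, Sesn2 and Aldh18a1 in the combination against FK506, Atf5 in the combination against Control, and the interactions of Mthfd2, Slc7a5, Slc3a2 and Slc7a1. In limma on both scales the interactions of Gdf15, Slc7a5, Slc3a2 and Slc7a1 were lost, Sesn2 and Aldh18a1 in the combination against FK506, and Slc38a2 with FK506. On log2(FPKM + 1) alone these were Vldlr in the combination against FK506 and Slc7a11 with metformin, and on log2(FPKM + 0.1) alone Chac1 and Pycr1 with metformin. DESeq2 lost Pycr1 with metformin, and RLE scaling Sesn2 in the combination against FK506. Without a filter, Cebpb and Slc1a5 with metformin, Sesn2 and Aldh18a1 in the combination against FK506 and the interaction of Slc7a1 were lost, and with only the groups compared Sesn2, Psat1 and Aldh18a1 in the combination against FK506. Of the directions that turned, those of Ppp1r15a by the interaction, Slc38a2 with FK506 and Slc3a2 in the combination against Control passed the test under the T cell marker scaling, and that of Slc3a2 in both limma fits as well. Other calls gained were the interactions of Atf4 (-0.23) and Psat1 (-0.32), Slc7a5 (0.19) and Slc7a1 (0.22) with metformin, and falls of Shmt1, Mthfd1, Mthfd1l, Slc7a11 and Slc1a5 in the combination against FK506, all with scaling by the T cell markers. Further gains were Slc7a1 with metformin and Shmt2 in the combination against FK506 with a mean FPKM of at least 1, Slc7a1 and Cth with metformin and Gdf15 in the combination against FK506 with only the groups compared, Slc3a2 in the combination against Control without a filter (a fall, -0.10), and the interaction of Gpt2 in DESeq2.

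Same-numbered samples did not deviate together over all genes tested (r between -0.086 and 0.054 over 18 pairs, none over 0.1), so the main fit did not pair them. This does not exclude a small shared effect, and no label says whether same-numbered cultures share a mouse or a batch. With a replicate block, 23 members were higher and 7 lower with metformin, 3 and 34 with FK506, 22 and 2 in the combination against FK506, and 14 and 11 by the interaction. The block lost Cebpb with metformin, Sesn2 in the combination against FK506 and the interaction of Slc7a1. Depth limits Cbs and Cth, which held 0 to 27 counts in cultures with FK506.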
